A study of Mus musculus with 9 samples.

Results

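The genes described here are the mouse chemokines and their receptors, taken from the deposited count tables by symbol: every gene named Ccl, Cxcl, Ccr, Cxcr or Ackr followed directly by a number. There were 56 of them among 38926 genes. They comprised 24 CC ligands, 13 CXC ligands, 10 CC receptors, 6 CXC receptors and 3 atypical receptors. RNA came from whole dorsal root ganglia of lumbar levels L3, L4 and L5, taken on the side of the treated paws from wild-type male C57BL/6 mice aged 8 to 10 weeks. The 9 libraries fell into 3 groups of 3: cisplatin, given by injection into a paw, in total 40 µg; oxaliplatin, by the same route and in the same total amount; and a vehicle group that serves as control for both. Each library was made from the pooled ganglia of 4 animals, so the replicate is the pool, and the labels name no batch or pairing. All groups share strain, sex and age range, and the vehicle's composition is not given in the sources used here. The labelled tissue held its defining transcripts: 11 sensory neuron markers summed to 15834 to 17298 CPM (reads per 1000000 gene reads) in cisplatin libraries, 16526 to 17022 CPM in oxaliplatin libraries and 15893 to 16979 CPM in vehicle libraries.

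Cisplatin and oxaliplatin are platinum anticancer drugs whose use is limited by damage to sensory neurons. Chemokines are small secreted proteins that bind G protein-coupled receptors and direct the movement of leukocytes, and they are grouped as CC or CXC by the spacing of their first cysteines. In sensory ganglia they are known from resident macrophages, satellite glia, vessels and infiltrating leukocytes, and some, Ccl2 and Cxcl12 among them, are also known to act on neurons. Atypical receptors bind chemokines without G protein signalling and remove or transport them.

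The drug libraries held 31971613 to 38808509 reads assigned to genes, and the vehicle libraries 22819185 to 32022672. Read counts given below are not adjusted for this difference in depth. Of uniquely aligned reads, 18.6 to 19.1% lay outside annotated genes in cisplatin libraries, 16.6 to 17.8% in oxaliplatin libraries and 26.2 to 47.7% in vehicle libraries. Vehicle library 2 stood apart: its value was the 47.7%, 51.0% of its reads aligned to multiple places, and its scaling factor was 0.700, against 0.960 to 1.10 in the other libraries. Levels below are CPM, that is gene reads scaled to library size with factors from the trimmed mean of M-values (TMM), and 3 reads, the detection floor, corresponded to 0.0711 to 0.188 CPM. Intervals and floors cover counting error only where they come from reads, since the reads carry no molecular identifiers.

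Of the 56 genes, 42 were detected, with at least 3 reads in at least 3 of the 9 libraries, and 34 were still detected at a minimum of 10 reads. The CC receptors numbered 7 detected of 10, the CXC receptors 5 of 6, the atypical receptors 3 of 3, the CC ligands 19 of 24 and the CXC ligands 8 of 13. The other 14 were Ccl20, Ccl21b, Ccl21c, Ccl26, Ccl27b, Cxcl2, Cxcl3, Cxcl13, Cxcl15, Cxcl17, Ccr4, Ccr6, Ccr8 and Cxcr1. Among these, Ccl21b, Ccl21c, Ccl26, Ccl27b, Cxcl3 and Cxcl15 had 0 reads in every library, so any level was under the floor of 3 reads per library. Ccl21b and Ccl21c are near-identical copies of Ccl21a, as Ccl27b is of Ccl27a, and reads that align to multiple places were given to no gene. The levels of these copies, and of Ccl21a and Ccl27a, are therefore uncertain.

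A few members held most of the signal. All 56 together summed to 145, 136 and 121 CPM in the cisplatin libraries, 120.3, 130.3 and 131 CPM in the oxaliplatin libraries and 92.5, 107 and 101 CPM in the vehicle libraries, so every drug library lay above every vehicle library. Cxcl12, Cxcr4 and Ackr3 alone took 39.2 to 49.7% of all reads of the family. Per kilobase of exon, over the 9 libraries, the highest levels were 9.75 CPM per kb for Cxcr4, the receptor of Cxcl12, and 8.75 for Ccl11 (eotaxin-1), an attractant of eosinophils. Ccl27a, a ligand of Ccr10, stood at 4.01 CPM per kb, Ackr3, an atypical receptor that takes up Cxcl12, at 3.47, and Cxcl12 at 2.95. Among CC receptors Ccr2, the receptor of inflammatory monocytes, had the highest level, 1.92 CPM per kb, and Ccr1 followed with 0.567.

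**Figure D1:**
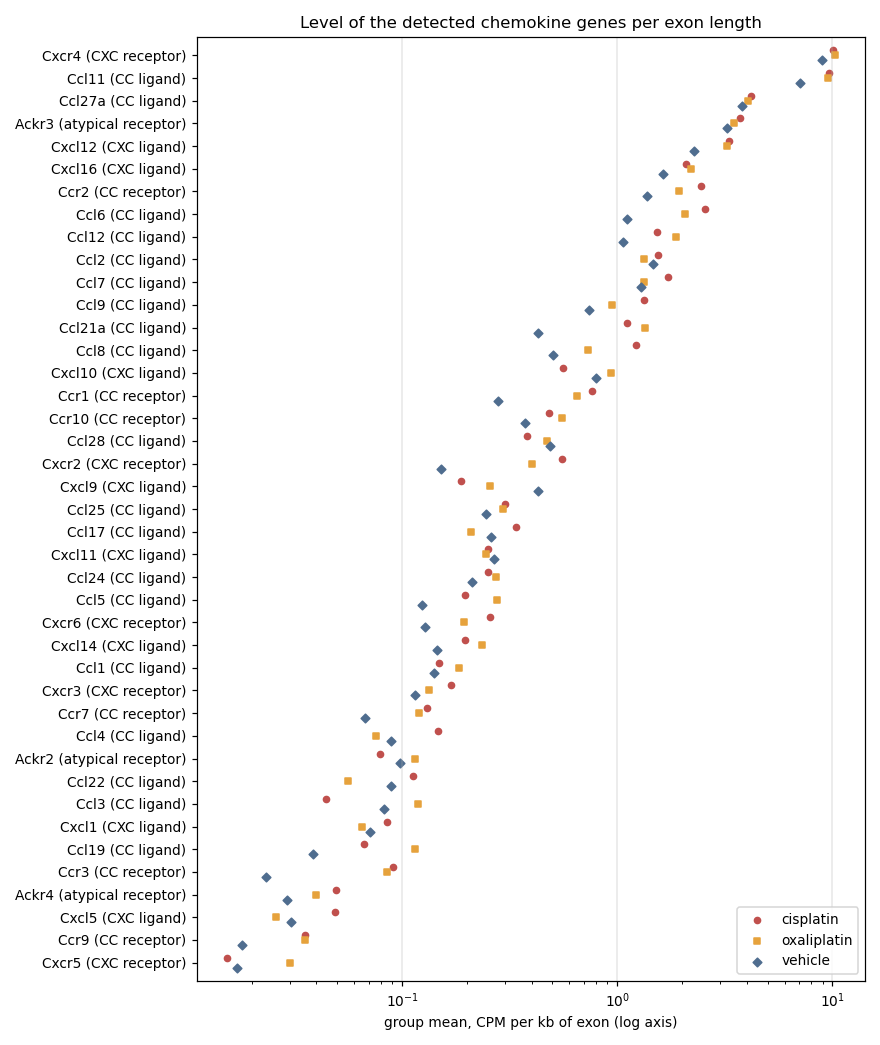
Group mean level of the detected chemokine and receptor genes except 1 that is not reported in CPM per kb of exon (log axis), one marker per group of 3 libraries, genes ordered by their mean over all 9. The genes span from about the floor to Cxcr4 at 9.75 CPM per kb, and Cxcr2, Ccr1, Ccr3, Ccl6 and Ccl21a show the vehicle marker to the left of both drug markers.

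Each drug was compared with vehicle to ask which of these transcripts differ in the ganglion after treatment of the paw. With cisplatin, 10 of the 34 genes that passed edgeR's count filter were higher and 0 lower (edgeR quasi-likelihood test, Benjamini-Hochberg adjusted p under 0.05 over all 17348 genes tested). Over all genes tested, 15.8% were called higher and 22.9% lower in that comparison. With oxaliplatin, again 10 of 34 were higher and 0 lower, beside 17.5% higher and 24.1% lower over all genes. At an unadjusted p under 0.05, 13 and 11 were higher and 0 lower, beside 21.5% and 22.5% higher and 26.8% and 27.3% lower over all genes, and DESeq2 called 9 higher and 0 lower in each comparison. The median log2 fold change of the 34 was 0.47 with cisplatin and 0.44 with oxaliplatin, against 0.0031 and 0.0034 over all genes tested. The 34 include members, such as Ccr3 and Cxcr6, that met the filter in drug libraries alone, so these counts and medians carry that selection. The 22 other members did not pass the filter and have no test. With library totals in place of TMM the median of all genes moved to 0.29 and 0.30, and the members numbered 19 higher and 1 lower with cisplatin and 19 higher with oxaliplatin. Leaving out 1 library gave 7 to 14 higher with cisplatin, and with oxaliplatin 6 without oxaliplatin library 2, 5 without oxaliplatin library 3, 5 without vehicle library 1, 6 without vehicle library 3 and 8 to 12 without any of the others. Both comparisons use the same 3 vehicle libraries, so their calls are not independent.

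Called with both drugs were the receptors Cxcr2, Ccr1 and Ccr3 and the ligands Ccl6, Ccl11, Ccl21a and Cxcl12. Ccl9, Ccr2 and Cxcr6 passed with cisplatin alone, and Ccl12, Cxcl16 and Cxcr4 with oxaliplatin alone. Among these, Ccr3 and Cxcr6 met the count filter in drug libraries alone, so their calls carry that selection. By position of the libraries, 8 members had every cisplatin library above every vehicle library and 0 had every one below, and 10 and 0 did with oxaliplatin. Over all genes tested, 21.3% lay wholly above and 26.7% wholly below vehicle with cisplatin, and 23.1% and 27.4% with oxaliplatin, so the share above was near that of all genes with cisplatin. Of the called members, 6 of 10 with cisplatin and 8 of 10 with oxaliplatin were separated in this way. Calls and separation come from the same libraries, and the share among all called genes was not counted, so nothing is read from these counts.

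**Figure D2:**
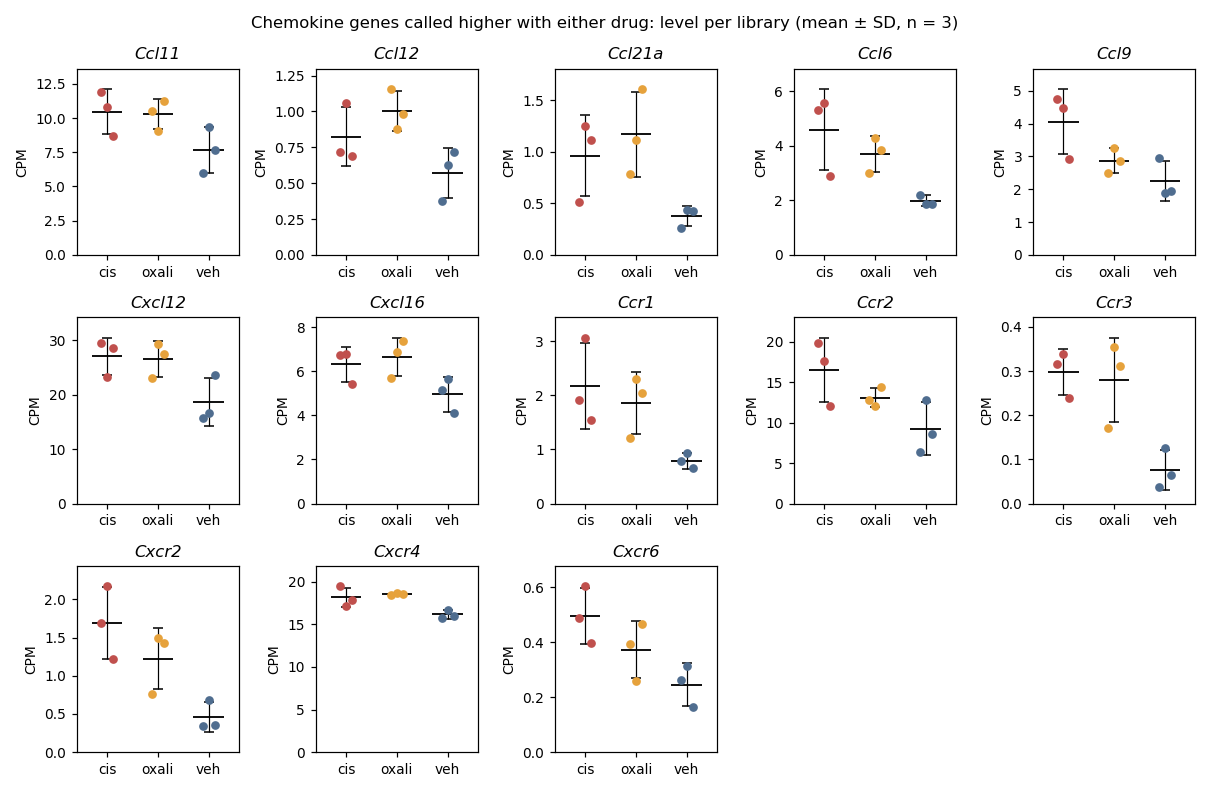
Level in CPM (axes from 0) of the 13 members called higher with cisplatin or oxaliplatin, one point per library (cis, cisplatin; oxali, oxaliplatin; veh, vehicle), with the group mean and SD (n = 3 libraries each). Cxcr2, Ccr1, Ccr3, Ccl6 and Ccl21a separate both drug groups from vehicle, as does Cxcr4 by a small margin, while in Cxcl12 and Ccl11 1 vehicle library reaches into the drug range.

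Cxcr2, the receptor through which neutrophils follow CXC ligands such as Cxcl1, had the smallest p of the family with cisplatin. It stood at 1.69, 2.17 and 1.22 CPM in the cisplatin libraries, 0.762, 1.49 and 1.43 CPM in the oxaliplatin libraries and 0.337, 0.689 and 0.358 CPM in the vehicle libraries. All 6 drug libraries were above all 3 vehicle libraries, and the lowest drug value, in oxaliplatin library 1, lay close to the highest vehicle value. The log2 fold change was 1.98 (SE 0.37, adjusted p = 0.00137) with cisplatin, with a 95% interval of 1.18 to 2.78, and 1.51 (SE 0.38, adjusted p = 0.00770) with oxaliplatin, with an interval of 0.68 to 2.34. Both calls held in each of the alternative fits that were run, leaving out any library included.

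The Cxcr2 ligands Cxcl1, Cxcl2, Cxcl3 and Cxcl5 were near or under the floor. Cxcl1 had 7, 6 and 5 reads in the cisplatin libraries, 6, 7 and 2 in the oxaliplatin libraries and 3, 3 and 3 in the vehicle libraries. Every cisplatin count was above every vehicle count, while the oxaliplatin counts overlapped both. Scaled for depth, the cisplatin libraries (0.201, 0.145 and 0.133 CPM) overlapped the vehicle libraries (0.112, 0.188 and 0.0975 CPM). The gene did not pass the filter. Cxcl5 had at most 5 reads and Cxcl2 at most 2 reads in any library, and Cxcl3 had 0. The 5 genes Cxcl5, Cxcl3, Cxcl15, Cxcl1 and Cxcl2 lie in a single stretch of chromosome 5 (GRCm38, chr5:90759360-90905938), and 0 of them passed the filter. Genes outside the symbol rule that lie in this stretch are not counted here. Cxcr1, the neighbour of Cxcr2 on chromosome 1, had at most 2 reads per library.

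Apart from Cxcr2, the receptors called with cisplatin lie in a single stretch of chromosome 9 (GRCm38, chr9:123678439-124113557), which holds Ccr9, Cxcr6, Ccr1, Ccr3 and Ccr2. These 5 genes were all tested, 4 were called higher with cisplatin at log2 fold changes of 0.88 to 2.07, and 2 with oxaliplatin, Ccr1 and Ccr3. Over all genes tested, 15.8% were called higher with cisplatin and 17.5% with oxaliplatin. Ccr9 changed by 0.82 with cisplatin and 0.83 with oxaliplatin, and neither passed the test. The 250 bases before the RefSeq start of Ccr1 and of Ccr3 are shown because these are the 2 receptors of the stretch that were called with both drugs. They were read from RefSeq on GRCm38.p6, 5′ to 3′ on the strand of the gene, with capitals marking the match to the kappaB letters GGANNNTCC.
Ccr1 (chr9:123968693-123968942, minus strand): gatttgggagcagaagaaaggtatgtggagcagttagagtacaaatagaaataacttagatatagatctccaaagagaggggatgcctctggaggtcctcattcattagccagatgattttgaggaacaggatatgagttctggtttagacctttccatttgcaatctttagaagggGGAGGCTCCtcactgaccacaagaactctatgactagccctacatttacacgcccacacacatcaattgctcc
Ccr3 (chr9:124021721-124021970, plus strand): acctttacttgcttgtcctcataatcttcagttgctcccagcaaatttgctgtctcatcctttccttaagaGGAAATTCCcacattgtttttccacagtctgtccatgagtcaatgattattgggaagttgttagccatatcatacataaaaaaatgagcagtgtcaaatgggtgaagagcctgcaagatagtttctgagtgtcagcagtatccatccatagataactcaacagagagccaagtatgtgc

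Ccr1, carried by monocytes and neutrophils and bound by Ccl6, Ccl9 and other CC ligands in mice, stood at 1.92, 3.06 and 1.54 CPM in the cisplatin libraries, 1.2, 2.30 and 2.05 CPM in the oxaliplatin libraries and 0.787, 0.940 and 0.650 CPM in the vehicle libraries. Drug and vehicle libraries did not overlap. On the log2 scale the change was 1.5 (SE 0.33, adjusted p = 0.00418) with cisplatin and 1.26 (SE 0.34, adjusted p = 0.0110) with oxaliplatin, and the oxaliplatin call was lost without vehicle library 3 (adjusted p = 0.0562).

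Ccr3, the eosinophil receptor of Ccl11, was scarce. It had 11, 14 and 9 reads in the cisplatin libraries, 7, 15 and 12 in the oxaliplatin libraries and 1, 2 and 2 in the vehicle libraries. Every vehicle library was under the floor of 3 reads, and every drug library above it. Summed over each group, 34 reads with cisplatin against 5 with vehicle gave a ratio of 4.38 after scaling (95% counting interval 1.70 to 14.3), and 34 with oxaliplatin against the same 5 gave 4.11 (1.60 to 13.5). The fitted log2 fold changes, 2.07 (adjusted p = 0.0106) with cisplatin and 1.98 (adjusted p = 0.0127) with oxaliplatin, depend on the prior count. Ccr3 met edgeR's count filter in drug libraries alone, so both tests concern a gene kept through the groups where it was high. Without vehicle library 1 the adjusted p was 0.0537 and 0.0611 in these comparisons, and a filter of 1 CPM in 3 libraries, or a fit of 2 groups only, left Ccr3 untested.

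Ccr2, the receptor of Ccl2, Ccl7 and Ccl12 on monocytes, was the most abundant CC receptor. Its values were 19.8, 17.6 and 12.1 CPM in the cisplatin libraries, 12.8, 12.1 and 14.4 CPM in the oxaliplatin libraries and 6.37, 12.8 and 8.55 CPM in the vehicle libraries. Cisplatin library 3 and oxaliplatin libraries 1 and 2 lay below vehicle library 2, so the groups overlapped. Relative to vehicle, the log2 fold change was 0.88 (SE 0.22, adjusted p = 0.00741) with cisplatin, a call that held in all alternative fits, and 0.55 (SE 0.22, adjusted p = 0.0628) with oxaliplatin. The oxaliplatin change was 0.82 without vehicle library 2 (adjusted p = 0.00562) and 0.93 with the trend of each library with gene length and GC content removed (adjusted p = 0.00542). It was also called without cisplatin library 3 (adjusted p = 0.0239), and in all in 8 of 19 alternative fits.

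Cxcr6, the receptor of Cxcl16 on T and natural killer (NK) cells, stood at 0.487, 0.603 and 0.399 CPM in the cisplatin libraries, 0.393, 0.261 and 0.466 CPM in the oxaliplatin libraries and 0.262, 0.313 and 0.163 CPM in the vehicle libraries. All cisplatin libraries were above all vehicle libraries, and oxaliplatin library 2 was below vehicle library 2. This gave a log2 fold change of 1.08 (SE 0.37, adjusted p = 0.0370) with cisplatin and 0.66 (SE 0.39, adjusted p = 0.191) with oxaliplatin. No vehicle library reached the level set by edgeR's count filter, so Cxcr6 was tested through its drug libraries alone. The cisplatin call was lost without cisplatin library 1 (adjusted p = 0.0685), cisplatin library 2 (0.128), vehicle library 1 (0.0737) or vehicle library 3 (0.162), in DESeq2 (0.102) and with the length and GC trend removed (0.0524).

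**Figure D3:**
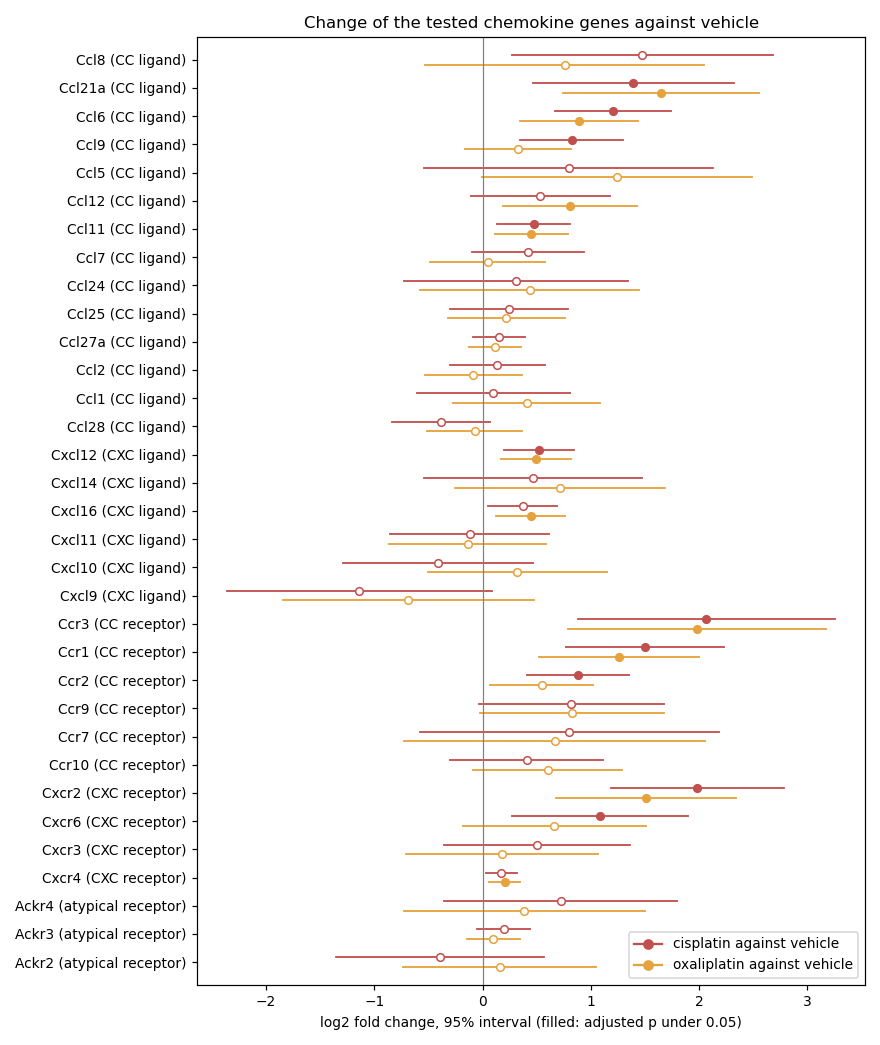
Log2 fold change of 33 of the 34 tested members against vehicle with its 95% interval, cisplatin above oxaliplatin for each gene, grouped by class and ordered by the cisplatin value; filled points passed an adjusted p under 0.05 (n = 3 libraries per group). Filled points all lie to the right of 0, and intervals were widest for Ccr7, Ccl5, Cxcl9, Ccl8 and Ccr3 with either drug.

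Among CC ligands, 4 of the 14 tested were called higher with each drug, beside 15.8% of all genes tested with cisplatin and 17.5% with oxaliplatin. Ccl6, a CC ligand of mouse myeloid cells, stood at 5.30, 5.59 and 2.90 CPM in the cisplatin libraries, 3.0, 4.29 and 3.86 CPM in the oxaliplatin libraries and 2.21, 1.88 and 1.89 CPM in the vehicle libraries. Every drug library was above every vehicle library, and the 3 vehicle values were close together. The log2 fold change was 1.2 (SE 0.25, adjusted p = 0.00259) with cisplatin, a call that held in all alternative fits, and 0.89 (SE 0.25, adjusted p = 0.0134) with oxaliplatin. The oxaliplatin call was lost without oxaliplatin library 2 (adjusted p = 0.05001) or vehicle library 3 (0.0555).

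Ccl9, the neighbour of Ccl6 on chromosome 11 and like it a ligand of Ccr1, had 4.76, 4.48 and 2.92 CPM in the cisplatin libraries, 2.51, 3.27 and 2.85 CPM in the oxaliplatin libraries and 2.96, 1.88 and 1.95 CPM in the vehicle libraries. Cisplatin libraries 1 and 2 stood highest, and vehicle library 1 overlapped both drug groups. On the log2 scale the change was 0.82 (SE 0.22, adjusted p = 0.0111) with cisplatin and 0.33 (SE 0.22, adjusted p = 0.263) with oxaliplatin, and the cisplatin call was lost without vehicle library 3 (adjusted p = 0.0585). Both genes belong to a run of 5 ligands (GRCm38, chr11:83525778-83664683) with Ccl5, Ccl3 and Ccl4. Ccl3 and Ccl4, the macrophage inflammatory proteins, had at most 4 reads in any library, and Ccl5 had 6, 12 and 4 reads in the cisplatin libraries, 14, 8 and 10 in the oxaliplatin libraries and 1, 3 and 4 in the vehicle libraries. Ccl5 changed by 0.79 (adjusted p = 0.327) with cisplatin and 1.24 (adjusted p = 0.102) with oxaliplatin on the log2 scale, which did not pass the test.

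A second run of ligands on chromosome 11 (GRCm38, chr11:82035571-82305690) holds Ccl2, Ccl7, Ccl11, Ccl12, Ccl8 and Ccl1, all tested. Ccl11 had 11.9, 10.8 and 8.67 CPM in the cisplatin libraries, 10.5, 9.07 and 11.2 CPM in the oxaliplatin libraries and 6.00, 9.33 and 7.67 CPM in the vehicle libraries. Cisplatin library 3 and oxaliplatin library 2 lay below vehicle library 2. Relative to vehicle, the log2 fold change was 0.47 (SE 0.16, adjusted p = 0.0308) with cisplatin and 0.45 (SE 0.15, adjusted p = 0.0357) with oxaliplatin. The call with cisplatin was lost without cisplatin library 1 (adjusted p = 0.110), cisplatin library 2 (0.0850), vehicle library 1 (0.121) or vehicle library 3 (0.0723), and with the length and GC trend removed (0.0832). The call with oxaliplatin was lost without oxaliplatin library 1 (adjusted p = 0.0524), oxaliplatin library 3 (0.117), vehicle library 1 (0.137) or vehicle library 3 (0.0801), and with that trend removed (0.0586).

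Ccl12, a mouse ligand of Ccr2, stood at 0.717, 1.06 and 0.691 CPM in the cisplatin libraries, 1.15, 0.877 and 0.985 CPM in the oxaliplatin libraries and 0.375, 0.626 and 0.715 CPM in the vehicle libraries. All oxaliplatin libraries were above all vehicle libraries, and cisplatin library 3 was below vehicle library 3. This gave a log2 fold change of 0.81 (SE 0.28, adjusted p = 0.0377) with oxaliplatin and 0.53 (SE 0.29, adjusted p = 0.169) with cisplatin. The oxaliplatin call was lost without oxaliplatin library 1 (adjusted p = 0.0857), oxaliplatin library 3 (0.0744) or vehicle library 1 (0.153), in DESeq2 (0.0669) and with the length and GC trend removed (0.112).

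The other Ccr2 ligands of that run did not pass the test. Ccl2, the ligand most often described in injured ganglia, had 1.52, 2.0 and 1.78 CPM in the cisplatin libraries, 1.35, 1.66 and 1.55 CPM in the oxaliplatin libraries and 1.61, 2.13 and 1.27 CPM in the vehicle libraries. The 3 groups overlapped throughout. Its log2 fold change was 0.14 with cisplatin (95% interval -0.30 to 0.57) and -0.09 with oxaliplatin (-0.53 to 0.36), so a doubling lay outside both intervals. Ccl7, a further monocyte attractant, changed by 0.42 (adjusted p = 0.178) with cisplatin and 0.05 (adjusted p = 0.894) with oxaliplatin. Ccl8, which binds Ccr8 in mice, had 27, 29 and 15 reads in the cisplatin libraries, 23, 16 and 7 in the oxaliplatin libraries and 2, 8 and 6 in the vehicle libraries. Its log2 fold change was 1.48 (adjusted p = 0.0516) with cisplatin and 0.76 (adjusted p = 0.328) with oxaliplatin, neither past the threshold. The cisplatin change of Ccl8 was called without cisplatin library 3 (adjusted p = 0.0291), oxaliplatin library 1 (0.0380), oxaliplatin library 3 (0.0425) or vehicle library 2 (0.0138, at a change of 2.16). It was also called with median-ratio scaling (0.0491), library totals (0.000486), no count filter (0.0159), a fit of 2 groups (0.0418) or structural RNAs removed (0.0435), and in all in 10 of 18 alternative fits. The cisplatin change of Ccl7 was called without vehicle library 1 (adjusted p = 0.0282, at 0.80).

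The 250 bases before the RefSeq starts of Ccl6 and Ccl12 are shown as the called ligands with a match to the core letters of the myeloid factor PU.1, AGGAAGT, which both carry on the opposite strand as ACTTCCT. Capitals mark these letters and, in Ccl12, the kappaB letters as well (RefSeq, GRCm38.p6, 5′ to 3′ on the strand of the gene).
Ccl6 (chr11:83593088-83593337, minus strand): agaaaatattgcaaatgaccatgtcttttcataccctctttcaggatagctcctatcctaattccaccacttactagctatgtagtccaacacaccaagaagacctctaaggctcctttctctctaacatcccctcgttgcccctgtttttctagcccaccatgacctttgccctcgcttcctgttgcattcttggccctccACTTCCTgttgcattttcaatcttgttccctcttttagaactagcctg
Ccl12 (chr11:82101595-82101844, plus strand): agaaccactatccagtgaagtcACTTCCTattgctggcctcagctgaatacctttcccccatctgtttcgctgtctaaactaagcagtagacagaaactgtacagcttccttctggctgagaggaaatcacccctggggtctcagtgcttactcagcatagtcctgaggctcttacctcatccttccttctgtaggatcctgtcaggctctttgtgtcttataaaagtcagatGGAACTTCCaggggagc

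Of the 13 called members, 11 had a RefSeq promoter window, 250 bases before to 50 after the start, and both strands were searched for 3 sets of letters. The PU.1 letters were in 2 of the 11, Ccl6 with the match beginning 48 bases before the start and Ccl12 at 228 bases, in 8 of the 40 member promoters and in 9.57% of 27025 promoters of all genes. The kappaB letters GGANNNTCC were in 3 of the 11, in Ccr1 at 73 bases, Ccr3 at 179 bases and Ccl12 at 17 bases, in 9 of 40 member promoters and in 8.57% of all. The C/EBP letters TTGCNNAA were in 1 of the 11, Ccl21a at 227 bases, in 5 of 40 and in 10.8% of all. The kappaB and PU.1 matches do not overlap in Ccl12. These are matches of letters in a window, and binding was not measured.

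Ccl21a, the ligand of Ccr7 made by lymphatic vessels and lymphoid stroma, stood at 0.516, 1.25 and 1.12 CPM in the cisplatin libraries, 0.786, 1.11 and 1.61 CPM in the oxaliplatin libraries and 0.262, 0.438 and 0.423 CPM in the vehicle libraries. The drug groups lay above the vehicle group without overlap. Reads shared with its near-identical copies Ccl21b and Ccl21c would align to multiple places and be given to no gene. These values therefore rest on uniquely aligned reads. The log2 fold change was 1.39 (SE 0.43, adjusted p = 0.0223) with cisplatin and 1.65 (SE 0.41, adjusted p = 0.00762) with oxaliplatin, and the oxaliplatin call held in all alternative fits. The cisplatin call was lost without cisplatin library 2 (adjusted p = 0.0840), vehicle library 1 (0.0943) or vehicle library 3 (0.0527), and with the length and GC trend removed (0.0565). Ccr7 had 0 to 15 reads per library and changed by 0.80 (adjusted p = 0.339) with cisplatin and 0.67 (adjusted p = 0.426) with oxaliplatin.

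Cxcl12, which retains leukocytes in marrow and tissue stroma and guides developing neurons, was called with both drugs. Its values were 29.5, 23.2 and 28.5 CPM in the cisplatin libraries, 23, 29.4 and 27.4 CPM in the oxaliplatin libraries and 15.7, 16.6 and 23.7 CPM in the vehicle libraries. Vehicle library 3 lay within the range of both drug groups, and the other 2 vehicle libraries lay below every drug library. On the log2 scale the change was 0.52 (SE 0.15, adjusted p = 0.0164) with cisplatin and 0.49 (SE 0.15, adjusted p = 0.0191) with oxaliplatin. The cisplatin call was lost without cisplatin library 1 (adjusted p = 0.0598) or vehicle library 1 (0.0719), and the oxaliplatin call without oxaliplatin library 2 (0.0717), oxaliplatin library 3 (0.0555) or vehicle library 1 (0.0797).

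Cxcr4, its signalling receptor, had 19.4, 17.2 and 17.9 CPM in the cisplatin libraries, 18.5, 18.7 and 18.6 CPM in the oxaliplatin libraries and 15.7, 16.7 and 16 CPM in the vehicle libraries. The drug libraries were all above the vehicle libraries, by a small margin. Relative to vehicle, the log2 fold change was 0.20 (SE 0.07, adjusted p = 0.0257) with oxaliplatin and 0.17 (SE 0.07, adjusted p = 0.0560) with cisplatin. With the length and GC trend removed the oxaliplatin change was 0.05 (adjusted p = 0.580), and the call was also lost without oxaliplatin library 2 (0.0657), oxaliplatin library 3 (0.0663), vehicle library 1 (0.0555) or vehicle library 3 (0.0657). The cisplatin change was called without cisplatin library 3 (adjusted p = 0.0474), oxaliplatin library 1 (0.0417) or vehicle library 2 (0.0354), and with median-ratio scaling (0.0399), and in all in 8 of 19 alternative fits.

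Ackr3, the atypical receptor of Cxcl12, stood at 12.9, 12.8 and 11.6 CPM in the cisplatin libraries, 10.5, 12.1 and 12.4 CPM in the oxaliplatin libraries and 12.8, 9.21 and 10.3 CPM in the vehicle libraries. The groups overlapped. This gave a log2 fold change of 0.19 (SE 0.11, adjusted p = 0.194) with cisplatin (95% interval -0.05 to 0.44) and 0.10 (SE 0.11, adjusted p = 0.506) with oxaliplatin (-0.15 to 0.34). Without vehicle library 1 the cisplatin change was 0.36 (adjusted p = 0.0279).

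Cxcl16, the membrane-anchored ligand of Cxcr6, had 6.74, 6.80 and 5.40 CPM in the cisplatin libraries, 5.68, 6.85 and 7.38 CPM in the oxaliplatin libraries and 5.14, 5.64 and 4.10 CPM in the vehicle libraries. The oxaliplatin libraries were all above the vehicle libraries, and cisplatin library 3 was below vehicle library 2. The log2 fold change was 0.44 (SE 0.14, adjusted p = 0.0279) with oxaliplatin and 0.37 (SE 0.15, adjusted p = 0.0621) with cisplatin. The oxaliplatin call was lost without oxaliplatin library 2 (adjusted p = 0.0791), oxaliplatin library 3 (0.106) or vehicle library 3 (0.139), and with the length and GC trend removed (0.0829). The cisplatin change was called without cisplatin library 3 (adjusted p = 0.0202), oxaliplatin library 1 (0.0348) or vehicle library 2 (0.0336), and in all in 7 of 19 alternative fits. Of the 3021 exon bases of Cxcl16, 552 are shared with Zmynd15 on the opposite strand, and the strand setting of the counting is not given in the sources used here.

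The interferon-induced ligands of Cxcr3 did not pass the test in either comparison. Cxcl9 had 0.430, 0.627 and 0.638 CPM in the cisplatin libraries, 1.15, 0.758 and 0.415 CPM in the oxaliplatin libraries and 0.225, 1.88 and 1.79 CPM in the vehicle libraries. Vehicle libraries 2 and 3 stood highest and vehicle library 1 lowest of all 9. Its log2 fold change was -1.14 (SE 0.56, adjusted p = 0.128) with cisplatin and -0.68 (SE 0.53, adjusted p = 0.324) with oxaliplatin, and without vehicle library 1 it was -1.65 (adjusted p = 0.00761) and -1.2 (0.0230), lower with both drugs. Cxcl10 had 1.35, 1.23 and 1.22 CPM in the cisplatin libraries, 3.22, 1.54 and 1.55 CPM in the oxaliplatin libraries and 0.825, 2.94 and 1.63 CPM in the vehicle libraries. Oxaliplatin library 1 and vehicle library 2 were the high values, and the cisplatin libraries lay close together within the vehicle range. Cxcl10 changed by -0.41 (adjusted p = 0.446) with cisplatin and 0.32 (adjusted p = 0.521) with oxaliplatin, and Cxcl11 by -0.12 (adjusted p = 0.803) and -0.14 (adjusted p = 0.767) in the same order. GENCODE lists Cxcl11 as a polymorphic pseudogene, so its reads need not stand for a working ligand. Of its 3794 exon bases, 1582 are shared with the pseudogene Gm2673 on the opposite strand. Cxcr3 had 3 to 13 reads per library and changed by 0.50 (adjusted p = 0.367) with cisplatin and 0.18 (adjusted p = 0.782) with oxaliplatin.

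The ligands of Ccr10 also stayed short of the test. Ccl27a averaged 9.91 ± 0.679 CPM with cisplatin, 9.67 ± 0.823 CPM with oxaliplatin and 9.05 ± 1.36 CPM with vehicle (SD, n = 3 each), and its log2 fold change was 0.15 with cisplatin (95% interval -0.09 to 0.39) and 0.12 with oxaliplatin (-0.12 to 0.36). Ccl28, a mucosal ligand of the same receptor, changed by -0.39 (adjusted p = 0.160) with cisplatin and -0.07 (adjusted p = 0.796) with oxaliplatin, and Ccr10 by 0.41 (adjusted p = 0.342) and 0.60 (adjusted p = 0.148). Ccr9, the receptor of Ccl25, had every drug library above every vehicle library at 13 to 15 reads with either drug and 1 to 8 with vehicle, and changed by 0.82 (adjusted p = 0.118) with cisplatin and 0.83 (adjusted p = 0.108) with oxaliplatin. With the length and GC trend removed, Ccr9 changed by 1.12 (adjusted p = 0.0398) and 1.14 (0.0347). Ccl25 itself changed by 0.24 (adjusted p = 0.469) with cisplatin and 0.22 (adjusted p = 0.506) with oxaliplatin, and without vehicle library 3 by 0.73 (0.0210) and 0.71 (0.0220).

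The remaining tested ligands and the atypical receptors Ackr2 and Ackr4 did not pass the test either. Ccl1, a ligand of Ccr8, changed by 0.10 (adjusted p = 0.846) with cisplatin and 0.41 (adjusted p = 0.338) with oxaliplatin. Ccl24 (eotaxin-2), which binds Ccr3, changed by 0.31 (adjusted p = 0.638) and 0.43 (adjusted p = 0.480), and Cxcl14 by 0.46 (adjusted p = 0.452) and 0.71 (adjusted p = 0.217). Ackr2, which clears inflammatory CC ligands, changed by -0.39 (adjusted p = 0.508) with cisplatin and 0.16 (adjusted p = 0.783) with oxaliplatin. Ackr4, which takes up Ccl19, Ccl21 and Ccl25, changed by 0.72 (adjusted p = 0.270) with cisplatin and 0.39 (adjusted p = 0.570) with oxaliplatin. Detected but not tested were Ccl3, Ccl4, Cxcl1, Cxcl5, Ccl17, Ccl19, Ccl22 and Cxcr5, of which Ccl22, a ligand of Ccr4, had the most reads in a library, 12 in cisplatin library 2 and in oxaliplatin library 1.

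A relative of the family outside the symbol rule moved the other way. Darc, the older symbol of Ackr1, encodes the Duffy antigen receptor of venules and red cells, and it was picked out after its values were seen. It stood at 17.1, 19.0 and 22.1 CPM in the cisplatin libraries, 23, 16.7 and 18.6 CPM in the oxaliplatin libraries and 36.9, 26.9 and 48.6 CPM in the vehicle libraries. All 6 drug libraries were below all 3 vehicle libraries. On the log2 scale the change was -0.96 (SE 0.18, adjusted p = 0.00142) with cisplatin and -0.96 (SE 0.18, adjusted p = 0.00128) with oxaliplatin, and both calls held in all alternative fits. The gene (GRCm38, chr1:173331886-173333750, minus strand) shares 361 of its 1405 exon bases with Cadm3, a neuronal adhesion gene that lies just upstream on the same strand. Cadm3 stood at 371, 362 and 405 CPM in the cisplatin libraries, 427, 372 and 396 CPM in the oxaliplatin libraries and 517, 448 and 567 CPM in the vehicle libraries, and its log2 fold change was -0.43 (SE 0.09, adjusted p = 0.00277) with cisplatin and -0.36 (SE 0.09, adjusted p = 0.00726) with oxaliplatin. The part of Cadm3 reads, and of the larger share of reads outside genes in vehicle libraries, in the Darc values was not tested.

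Cisplatin and oxaliplatin, given at the same cumulative mass by the same route, were then compared with each other. Cisplatin carries 2 ammine ligands on its platinum, and oxaliplatin a diaminocyclohexane and an oxalate ligand. Among the 34 members, 0 were called in either direction, where 0.0115% of all genes were called higher and 0 genes lower with cisplatin. Differences ran from -0.73 for Cxcl10 to 0.72 for Ccl8 on the log2 scale, and the smallest adjusted p among the members was 0.767. At an unadjusted p under 0.05 there was 1 member, Ccl9, at 0.49 (95% interval 0.06 to 0.92, edgeR adjusted p = 0.767). Over all 17348 genes tested, 755 were higher and 356 lower with cisplatin at that unadjusted threshold, so nothing is read from the count of 1. Every alternative fit also called 0 members, though DESeq2 gave an adjusted p to only 15 members in this comparison.

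The intervals give the size of difference that the libraries could miss. In 23 of 34 members the 95% interval lay within a 2-fold difference in either direction, and in 7 within 1.5-fold. It was narrowest for Cxcr4, at -0.17 to 0.10, and for Cxcl12 it ran from -0.28 to 0.33. For Cxcr2 it was -0.14 to 1.08 around 0.47, so a difference of 2-fold in favour of cisplatin was not outside it. The median half-width was 0.60 on the log2 scale. Calls made with 1 drug alone against vehicle, such as Ccr2 and Ccl9 with cisplatin or Cxcl16 and Ccl12 with oxaliplatin, were thus not shown to differ between the drugs.

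**Figure D4:**
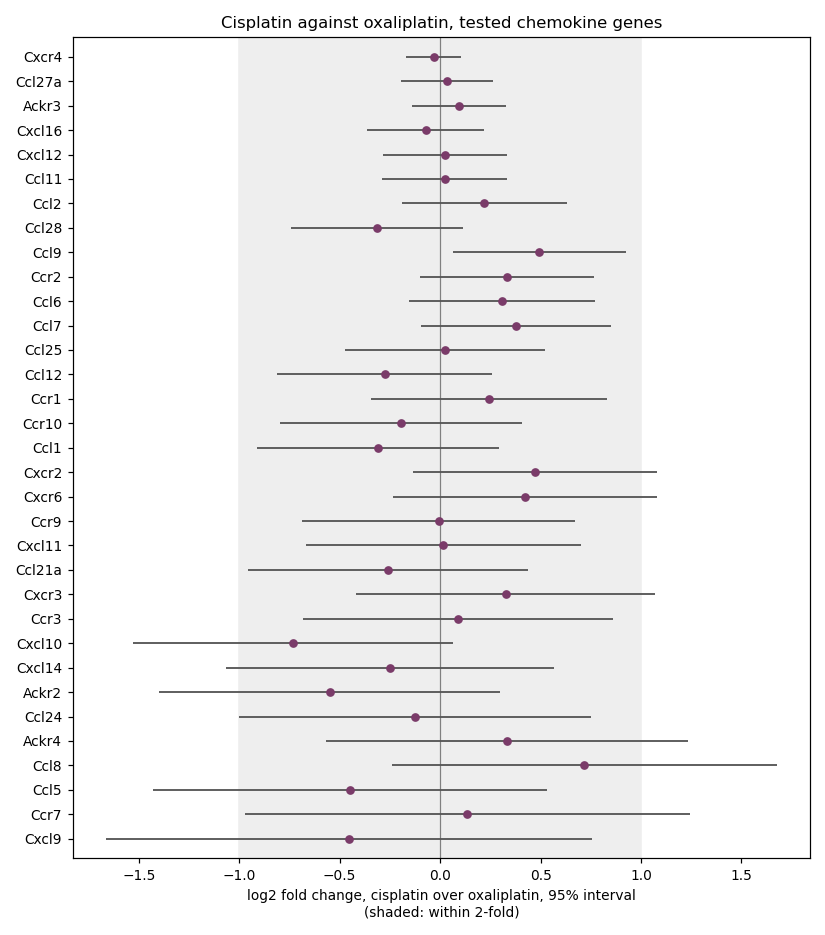
Log2 fold change of cisplatin over oxaliplatin for 33 of the 34 tested members with its 95% interval, ordered from the narrowest interval at the top; the shaded band marks a 2-fold difference in either direction. The interval of Ccl9 alone leaves out 0, and 22 of the 33 shown stay inside the band.

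Genes that work with the family were read from lists of the same fit, by counts alone. Of 11 other chemokine-type ligands and receptors tested, 5 were higher with cisplatin and 3 with oxaliplatin, and 0 lower with either. Over all genes tested, 15.8% were higher and 22.9% lower with cisplatin, and 17.5% and 24.1% with oxaliplatin. Darc, lower with both drugs, is not on that list. Cx3cr1, the fractalkine receptor of macrophages, averaged 11.7 ± 1.18 CPM with cisplatin, 11.7 ± 1.25 CPM with oxaliplatin and 6.63 ± 1.92 CPM with vehicle (SD, n = 3 each). Its log2 fold change was 0.87 (SE 0.16, adjusted p = 0.00121) with cisplatin and 0.87 (SE 0.16, adjusted p = 0.00109) with oxaliplatin. Rarres2, which encodes the attractant chemerin, averaged 28.9 ± 2.63 CPM with cisplatin, 28.5 ± 1.29 CPM with oxaliplatin and 18.6 ± 0.529 CPM with vehicle (SD, n = 3 each), with a log2 fold change of 0.64 (SE 0.07, adjusted p = 7.59e-05) with cisplatin and 0.62 (SE 0.07, adjusted p = 7.20e-05) with oxaliplatin. Pf4, the platelet chemokine Cxcl4, changed by 1.0 (adjusted p = 0.00155) with cisplatin and 0.52 (adjusted p = 0.0469) with oxaliplatin. Ppbp, a platelet chemokine that yields a Cxcr2 ligand, changed by 0.71 (adjusted p = 0.138) and -0.96 (adjusted p = 0.0755), which did not pass the test.

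Among 25 genes of signalling below chemokine receptors, 7 were higher and 7 lower with cisplatin and 5 higher and 7 lower with oxaliplatin. Over all genes tested, 15.8% were higher and 22.9% lower with cisplatin and 17.5% higher and 24.1% lower with oxaliplatin, and the median log2 fold change of the list was 0.09 and 0.06, so nothing is read from these counts about the list as a whole. Rac2, a small GTPase of leukocytes, averaged 4.75 ± 0.645 CPM with cisplatin, 3.25 ± 0.542 CPM with oxaliplatin and 1.99 ± 0.305 CPM with vehicle (SD, n = 3 each), with a log2 fold change of 1.28 (SE 0.17, adjusted p = 0.000180) with cisplatin and 0.73 (SE 0.18, adjusted p = 0.00602) with oxaliplatin. Elmo1, an activator of Rac, changed by -0.54 (SE 0.06, adjusted p = 5.26e-05) and Gnai1, an inhibitory G protein subunit, by -0.21 (SE 0.05, adjusted p = 0.00473) on the log2 scale with cisplatin; the oxaliplatin changes were -0.49 (adjusted p = 6.07e-05) and -0.33 (adjusted p = 0.000256). Of 10 enzymes that cut or shed chemokines, 8 were higher and 1 lower with cisplatin, and 4 higher and 1 lower with oxaliplatin. Mmp14, a membrane metalloprotease, changed by 0.35 (adjusted p = 0.000500) with cisplatin and 0.37 (adjusted p = 0.000361) with oxaliplatin. Adam10, a sheddase of Cxcl16 and Cx3cl1, was the lower one, at -0.41 (adjusted p = 0.000633) with cisplatin and -0.61 (adjusted p = 4.49e-05) with oxaliplatin.

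Of 16 tested genes that induce chemokines, 2 were higher and 1 lower with cisplatin, and 5 higher and 1 lower with oxaliplatin, beside the shares over all genes given above. Il17ra, an interleukin-17 receptor chain, changed by 0.48 (adjusted p = 0.00330) with cisplatin and 0.38 (adjusted p = 0.0109) with oxaliplatin, and Ifngr1, an interferon-gamma receptor chain, by 0.21 (adjusted p = 0.0102) and 0.16 (adjusted p = 0.0369). Hif1a, the hypoxia factor, was the lower one, at -0.23 (adjusted p = 0.0111) with cisplatin and -0.25 (adjusted p = 0.00646) with oxaliplatin. The list's cytokines themselves were scarce: of its 22 genes, 3 were at 0 in every cisplatin library, 4 in every oxaliplatin library and 3 in every vehicle library.

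Marker lists of cell types were read in the same way, beside 15.8% of all genes higher and 22.9% lower with cisplatin and 17.5% higher and 24.1% lower with oxaliplatin. Most neutrophil and macrophage markers were called higher with both drugs. Of 16 neutrophil and myeloid precursor markers, 15 were higher with cisplatin and 11 with oxaliplatin, and their summed level was 192 to 303 CPM with cisplatin, 103 to 229 with oxaliplatin and 50.3 to 117 with vehicle. Ltf, the neutrophil granule protein lactoferrin, changed by 1.79 (adjusted p = 0.000305) with cisplatin and 1.30 (adjusted p = 0.00220) with oxaliplatin. Of 15 macrophage and monocyte markers tested, 14 and 12 were higher, with sums of 243 to 322 CPM with cisplatin, 235 to 281 with oxaliplatin and 154 to 208 with vehicle. C1qb, a complement chain of resident macrophages, changed by 0.70 (adjusted p = 8.50e-05) and 0.76 (adjusted p = 3.59e-05). The T and NK markers, the cells known for Cxcr6, numbered 1 and 2 higher of 7, with sums of 4.39 to 4.65 CPM with cisplatin, 3.88 to 5.21 with oxaliplatin and 2.59 to 3.88 with vehicle.

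Most red cell, endothelial and fibroblast markers were also called higher, and the other lists had fewer calls. Of 7 red cell markers, 7 and 6 were higher, with sums of 101 to 218 CPM with cisplatin, 86.4 to 211 with oxaliplatin and 40.4 to 57.6 with vehicle. Of 11 endothelial markers, 8 and 10 were higher, and of 10 fibroblast and matrix markers 10 and 8. Of 7 B cell markers 3 were higher and 1 lower with cisplatin and 1 higher and 1 lower with oxaliplatin, and bone and cartilage markers gave 1 and 0 higher of 7. Satellite glia and Schwann cell markers gave 5 higher and 2 lower of 10 with cisplatin and 3 higher and 2 lower with oxaliplatin, sensory neuron markers 2 higher and 3 lower of 11 and 1 higher and 3 lower, and muscle markers 0 of 8 with each drug. None of the marker genes in the files was at 0 throughout a group. In bulk ganglia, more cells of a type and more RNA per cell cannot be told apart, and the part of these markers in the chemokine and receptor values was not tested.

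Gene length moved with the comparison too. Over 17102 genes with a known length, the log2 fold change against vehicle and exon length had a Spearman correlation of -0.413 with either drug, and of 0.0092 between the drugs, as a description across genes of the same libraries. The tested members had a median exon length of 2373 bases, against 4044 over all genes. With the trend of each library with length and GC content removed, 9 members were higher with cisplatin, 7 of them shared with the calls above, and 9 with oxaliplatin, 6 of them shared.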

How the data were processed

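Stranded total RNA libraries (TruSeq, per the labels' protocols) from pooled L3 to L5 ganglia were sequenced as single-end reads of 75 nucleotides, per the series' design text. The authors deposited raw read counts per gene symbol, 1 table per library; STAR, SAMtools, HTSeq and the build mm10 (GRCm38) are named in the submitters' processing notes, without versions. Neither the annotation nor the strand setting of the counting is known here. The 5 classes of reads assigned to no gene, 42.8 to 74.5% of recorded reads, were left out.

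The 9 libraries were fitted together with edgeR 4.0.16 (limma 3.58.1, R 4.3.3): group means as the only terms, TMM scaling, filterByExpr, quasi-likelihood F tests and Benjamini-Hochberg adjustment over 17348 genes, called at an adjusted p under 0.05. Each SE was obtained by dividing the fitted log2 change by the root of its F statistic, and intervals are at 95% confidence. The procedure was tested on simulated counts. Symbols were looked up in GENCODE M21 and RefSeq, and 96.0% matched; exon lengths and positions come from there. RefSeq promoters were at hand for 40 of the 56 members.

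The members and gene lists were chosen with earlier results of these data known. Named members are those called in any comparison, Ccl2, Ccr2, Cxcl1, Cxcr2, Cxcl12, Cxcr4 and Ackr3, and the 3 tested members of highest level per kilobase in each class. Other tested members are named to account for the family, and 1 tested member is not reported here by name, though counts and sums over members include it. Genes named from a list are among the 2 of smallest p per list and comparison. Darc and Cadm3 were added after their values were seen. The lists are described by counts and were not tested. Alternatives were DESeq2 1.42.0, median-ratio or library-total scaling, other count filters, a replicate term, fits of 2 groups, an adjusted p of 0.1, removal of structural RNAs, removal of the length and GC trend (mgcv 1.9.3) and leaving out each library. No 2 libraries of a group agreed within counting noise.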

Additional observations from a re-analysis of the deposited data

How the results depend on the processing

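Under the alternatives that were run, all 10 members called higher with cisplatin and all 10 with oxaliplatin kept their direction. The calls of Ccl6, Ccr1, Ccr2 and Cxcr2 with cisplatin, and of Ccl21a and Cxcr2 with oxaliplatin, held in every fit that tested them. Among the 24 uncalled tested members, 5 changed sign in some fit with cisplatin and 10 with oxaliplatin, none of them past the threshold in the other direction. With library totals, 19 members were higher and 1 lower with cisplatin and 19 higher with oxaliplatin, on a median of all genes of 0.29 and 0.30. Leaving out each library gave 7 to 14 higher and 0 to 1 lower with cisplatin, and 5 to 12 higher and 0 to 1 lower with oxaliplatin; the cause was not tested. The lower member was Cxcl9, in the fits with library totals and without vehicle library 1. An adjusted p of 0.1 gave 13 and 11 higher. With 10 reads as the minimum, 34 members in place of 42 were detected.

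No sign of pairing by replicate number was seen. Deviations from the group mean correlated at -0.14 to 0.11 in the 9 pairs of the same number, and at -0.23 to 0.21 in the 18 pairs of different numbers. With 3 libraries per group, such correlations cannot exclude a pairing. With a term for the replicate number (the replicate block), 10 members were higher with cisplatin, 9 of them shared with the fit without it, and 8 with oxaliplatin, all 8 shared. The block lost Cxcr6 (adjusted p = 0.0614) and gained Ccl8 (0.0476) with cisplatin, and lost Ccl11 (0.0542) and Ccl12 (0.0577) with oxaliplatin. With the block and the length and GC trend removed, 9 and 8 were higher. For members near the floor of 3 reads, such as Ccr3, Ccr7 and Cxcl1, depth limits what could be seen, and the median half-width of the drug difference was 0.60 on the log2 scale.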
